A study of Mus musculus with 12 samples.

Results

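The RNAs described here are 7 long noncoding transcripts, measured in T-ALL (T cell acute lymphoblastic leukaemia), a mouse cancer arising from immature T cells. Malat1, Neat1, Kcnq1ot1 and Tug1 are retained in the nucleus, and Gas5, Snhg1 and Snhg3 carry small nucleolar RNAs (snoRNAs) in their introns. The 7 members were chosen by symbol from the 23174 gene symbols that both expression tables share, with their values in these samples already known. Each symbol was found, and each passed the filter of a mean of at least 1 FPKM in both tables. Polyadenylated RNA was sequenced from 12 samples in 4 groups of 3, all of the C57BL/6 strain and all carrying Notch1-deltaE+, an activated form of Notch1. In the ex vivo experiment, T-ALL cells from spleen received vehicle (samples 1, 2 and 3) or AMD3100 (samples 1, 2 and 3), a small-molecule antagonist of CXCR4, the receptor of the chemokine CXCL12. These cells were kept with the cytokine IL-7 on a feeder layer of OP9 cells, a stromal line from mouse bone marrow whose division had been stopped, so that RNA of OP9 cells can be part of a sample. The sources used here give neither dose nor duration for AMD3100. The primary tumours were Cxcr4+/+ (wild type 1, 2 and 4) or Cxcr4-/- (knockout 5, 7 and 8), with no treatment named. The labels do not give the age or sex of the animals, the promoter that drives Notch1-deltaE, how Cxcr4 was deleted or whether replicates are separate animals. A p-value below thus reflects no more than the spread among these libraries, and this may be technical.

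Malat1 gathers in nuclear speckles, bodies rich in splicing factors, and Neat1 is the scaffold of paraspeckles, bodies built from RNA-binding proteins. The 2 genes are neighbours on mouse chromosome 19. Kcnq1ot1 is transcribed antisense within Kcnq1 from the paternal chromosome and silences the imprinted genes around it, and Tug1 has been tied to Polycomb-bound chromatin. Gas5, Snhg1 and Snhg3 work the other way round. Their introns are cut out and trimmed into snoRNAs, which guide the chemical modification or cleavage of ribosomal RNA, while the spliced exons of such hosts reach the cytoplasm and are often destroyed by nonsense-mediated decay. Gas5 belongs to the genes with a terminal oligopyrimidine (TOP) start, shared with ribosomal protein genes, and its RNA builds up when growth stops. The libraries held whole-cell polyadenylated RNA, so the place of an RNA in the cell was not measured, nor were the 2 isoforms of Neat1 separated. The values below, those of Malat1 and Neat1 included, cover only RNA that poly-A selection kept. The share of each RNA that was kept was not measured.

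Start regions are shown because a pyrimidine start sets TOP genes such as Gas5 apart, and the letters let the hosts be compared with the nuclear RNAs. RefSeq (GRCm38.p6) gave start windows for 6 of the 7 members, with 2 starts for Gas5, of which the downstream one is printed. Each sequence runs 5′ to 3′ on the gene's strand from 50 bases before the annotated start to 30 bases into the transcript. Capitals mark TATA-like letters, namely any match to TATAAA, to the form TATATA, or to the form TAAATA, on either strand and with overlapping matches merged.
Malat1 (chr19:5802643-5802722, minus strand): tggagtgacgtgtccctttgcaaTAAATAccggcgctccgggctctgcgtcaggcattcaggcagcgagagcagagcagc
Kcnq1ot1 (chr7:143296518-143296597, minus strand): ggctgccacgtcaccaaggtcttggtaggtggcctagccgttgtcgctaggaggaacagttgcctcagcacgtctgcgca
Tug1 (chr11:3648785-3648864, minus strand): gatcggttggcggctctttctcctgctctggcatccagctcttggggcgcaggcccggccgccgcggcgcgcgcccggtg
Gas5 (chr1:161035116-161035195, plus strand): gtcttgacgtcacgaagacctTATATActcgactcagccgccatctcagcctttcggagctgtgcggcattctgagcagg
Snhg1 (chr19:8723437-8723516, plus strand): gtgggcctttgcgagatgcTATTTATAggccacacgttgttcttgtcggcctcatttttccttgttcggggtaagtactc
Snhg3 (chr4:132353657-132353736, minus strand): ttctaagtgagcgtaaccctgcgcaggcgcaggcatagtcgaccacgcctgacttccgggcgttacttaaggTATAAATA

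The marked letters began 27 bases before the start of Malat1, 29 before the downstream start of Gas5 and 31 before the start of Snhg1. In Snhg3 they began at base 23 of the transcript, and the windows of Kcnq1ot1 and Tug1 held none. Among the windows of the same length around all 32851 RefSeq starts, 8.16% held such a match. From its downstream start the Gas5 transcript begins with a run of 5 pyrimidines, the first of them a C. Of all starts, 2.51% have such a run of at least that length. The upstream Gas5 start begins with a G, so it has no such run, and its window held no TATA-like match. The annotated Snhg1 start has 3 pyrimidines before the first purine. In the wider windows, from 250 bases before to 50 after the start, the cyclic AMP response element TGACGTCA was found once at the downstream Gas5 start and at no other start of the members (1.79% of all windows, both strands). The E-box CACGTG was found at none of the starts of the 6 members (7.15% of all windows). A match describes letters only, and no match says nothing of a factor.

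Expression is given as FPKM, the fragments mapped to a gene after correction for its length and for library size, and the authors deposited 1 table per experiment. No level is set across the tables. Ex vivo libraries summed to between 444803 and 480468 FPKM, and tumour libraries to between 368118 and 581159. Read totals cannot be taken from FPKM, but the steps between low values ex vivo gave relative depths of 0.909 and 0.757 for vehicle 2 and 3 against vehicle 1, and of 1.06, 1.25 and 1.21 for AMD3100 1, 2 and 3. None of 10 T cell markers was at 0 throughout a group. Gapdh, a gene that every cell uses, was listed at no more than 0.532 FPKM in every library, so that 0 may stand for a failed estimate. Knockout tumour 8 had the most genes listed at 0 (13231, against 10423 to 11433 in the other tumours). Cxcr4 stood at 241, 155 and 206 FPKM in wild-type tumours 1, 2 and 4 and at 23.2, 78.9 and 21.9 FPKM in knockouts 5, 7 and 8. The labels do not name the deleted part, so reads from the rest of the gene cannot be told apart from residual expression.

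With AMD3100, Malat1 and Kcnq1ot1 stood higher in every sample than in any vehicle sample, Neat1 was higher in each same-numbered pair, and Tug1 differed little. Of the snoRNA hosts, Snhg1 was lower in every AMD3100 sample than in any vehicle sample, while Gas5 and Snhg3 differed in both directions between pairs. The members were chosen with these values known, so they are given as a description with no p-value. In bulk RNA, fewer cells of a type and less RNA per cell cannot be told apart. Fitted differences are those of log2(FPKM + 1), where the added 1 makes the change of a low gene such as Kcnq1ot1 look smaller than its ratio.

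**Figure D1:**
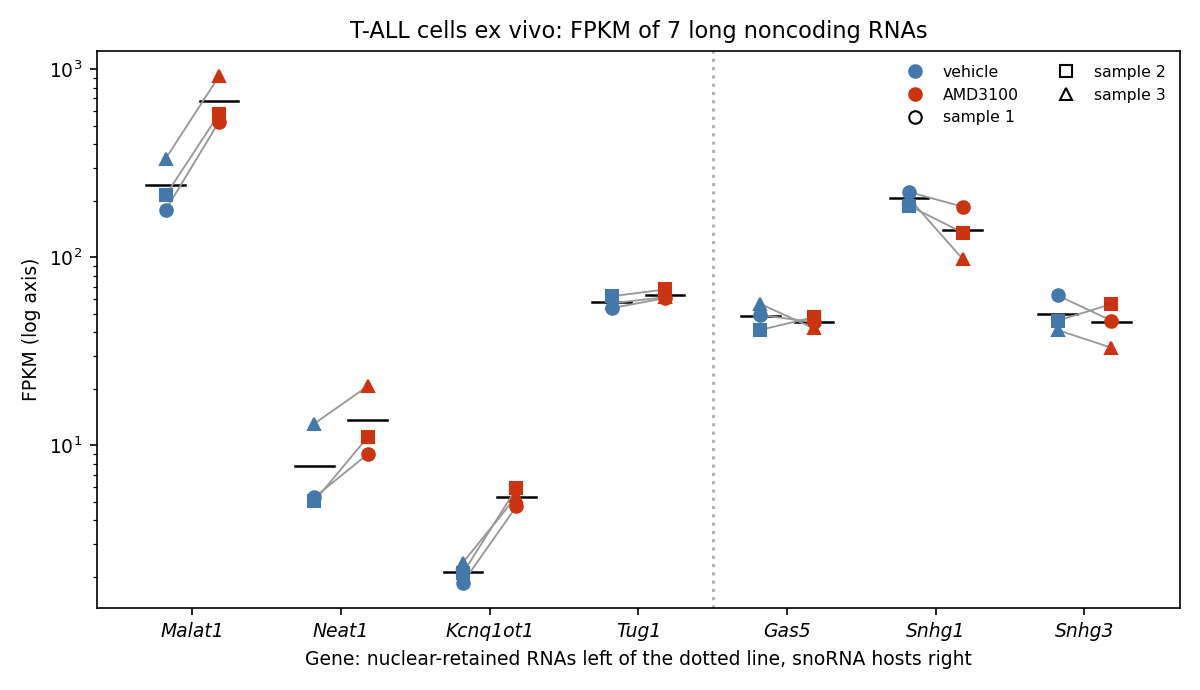
FPKM (log axis) of the 7 RNAs in T-ALL cells ex vivo, with blue points for vehicle, red points for AMD3100, marker shapes for the sample number, grey lines between same-numbered samples and black bars for group means (n = 3). The lines of Malat1, Neat1, Kcnq1ot1 and Tug1 go up in all 3 pairs, those of Snhg1 go down in all 3, and those of Gas5 and Snhg3 cross.

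Malat1, the speckle RNA, was at 178, 214 and 334 FPKM in vehicle 1, 2 and 3 and at 527, 580 and 920 FPKM in AMD3100 1, 2 and 3. Sample 3 was the highest in both groups, and the groups did not overlap. Its mean was 242 ± 81.8 FPKM in vehicle and 676 ± 214 FPKM with AMD3100 (SD, n = 3), a log2 difference of 1.48 (SE 0.31). Within pairs the ratio of AMD3100 to vehicle was 2.95, 2.72 and 2.75, a narrower range than the levels themselves.

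Neat1, the paraspeckle scaffold, was at 5.29, 5.05 and 13.1 FPKM in vehicle and at 9.0, 11.1 and 20.7 FPKM with AMD3100. Vehicle 3 lay above AMD3100 1 and 2, so the groups overlapped, and sample 3 was again the highest in both. The means were 7.80 ± 4.55 and 13.6 ± 6.23 FPKM (SD, n = 3), a log2 difference of 0.76 (SE 0.44), which was 1.16 without vehicle 3 and 0.44 without AMD3100 3. The pair ratios of Neat1 were 1.70, 2.19 and 1.58. Malat1 therefore stood further above its neighbour with AMD3100, at 33.7, 42.2 and 25.6 times the FPKM of Neat1 in vehicle and 58.6, 52.3 and 44.5 times with AMD3100.

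Kcnq1ot1, the antisense RNA of the imprinted Kcnq1 region, was at 1.87, 2.10 and 2.38 FPKM in vehicle and at 4.75, 5.92 and 5.36 FPKM with AMD3100. The groups did not overlap and each was tight, with means of 2.12 ± 0.259 and 5.34 ± 0.588 FPKM (SD, n = 3). The log2 difference was 1.02 (SE 0.17), and the pair ratios were 2.54, 2.82 and 2.25. Kcnq1, the gene on the opposite strand, was listed at 0 in vehicle 3 and all AMD3100 samples and at no more than 0.0543 FPKM in the others, so there was almost no signal under the symbol of the opposite gene. No source used here says whether the authors' counting used the strand.

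Tug1 was at 53.8, 62.1 and 57.0 FPKM in vehicle and at 60.7, 67.5 and 61.4 FPKM with AMD3100. Vehicle 2 lay above AMD3100 1 and 3. The means were 57.6 ± 4.22 and 63.2 ± 3.76 FPKM (SD, n = 3), a log2 difference of 0.13 (SE 0.09), and each pair ratio lay between 1.08 and 1.13.

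Snhg1, the host of the SNORD22 and SNORD25 to SNORD31 group, was at 223, 188 and 206 FPKM in vehicle and at 186, 136 and 98.2 FPKM with AMD3100. The groups did not overlap, although AMD3100 1 came within 3 FPKM of vehicle 2. The means were 206 ± 17.1 and 140 ± 44.1 FPKM (SD, n = 3), a log2 difference of -0.60 (SE 0.23). The pair ratios of Snhg1 were 0.836, 0.720 and 0.476, a wider range than for any of the nuclear RNAs on the log scale.

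Gas5 was at 49.5, 41.2 and 56.6 FPKM in vehicle and at 45.2, 48.0 and 42.0 FPKM with AMD3100, and every AMD3100 value lay inside the vehicle range. Its log2 difference was -0.11 (SE 0.13), and its pair ratios were 0.914, 1.17 and 0.742. Snhg3, the host of the SNORA73 pair, was at 62.7, 46.1 and 41.1 FPKM in vehicle and at 46.2, 56.4 and 33.1 FPKM with AMD3100. The groups overlapped, with a log2 difference of -0.15 (SE 0.24) and pair ratios of 0.736, 1.22 and 0.807.

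Without the replicate number as a block, limma called 0 of the 7 members at an adjusted p under 0.05, where it called 0.127% of the 10245 genes tested. Over all genes, 13 were called and 2204 had an unadjusted p under 0.05. With the replicate block, which compares same-numbered samples as pairs, it called Malat1, Neat1 and Kcnq1ot1 (3 of 7, all higher), where it called 19.9% of all genes, 9.96% higher and 9.92% lower. The paired SE was 0.07 for Malat1, 0.11 for Neat1 and 0.13 for Kcnq1ot1. Groups that did not overlap were found for 13.1% of all genes in the higher direction (Malat1 and Kcnq1ot1 among the members) and for 15.8% in the lower direction (Snhg1). Without pair 1, 2 or 3 the replicate block called 9, 7 or 1207 genes in all, and Malat1, Neat1 and Kcnq1ot1 were called only in the fit without pair 3.

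The differences ran with transcript length across all genes. Over the 5 length classes from the shortest to the longest transcripts, the median log2 difference was -0.15, -0.09, -0.01, 0.03 and 0.19. Neat1 (20771 bases in GENCODE M21), Kcnq1ot1 (93092), Malat1 (6983) and Tug1 (6719) all lie in the longest class, which starts at 5174 bases. The hosts Gas5, Snhg1 and Snhg3 have 2556, 2728 and 581 bases. The length is that of the longest transcript of a symbol, and the isoforms of Neat1 were not separated. The whole genes of Gas5 and Snhg1 span 3939 and 2840 bases, so the longest transcript may hold introns. Their spliced RNA may thus be shorter, and their corrected values below rest on the length given. With the replicate block and a correction for length, which called 13.1% of 10079 genes, only Malat1 of the members was called. The log2 difference was then 1.28 for Malat1, 0.32 for Neat1, 0.33 for Kcnq1ot1 and -0.06 for Tug1. For the hosts it was -0.06 for Gas5, -0.56 for Snhg1 and 0.10 for Snhg3. Neat1 and Kcnq1ot1 lie far into a class that ends at 123179 bases. The fitted length curve (span 0.3) draws there on genes shorter than this class as well, so their corrected values are less sure. Relative depth was also higher in the AMD3100 libraries, as given above, and the part of depth in these values was not tested.

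**Figure D2:**
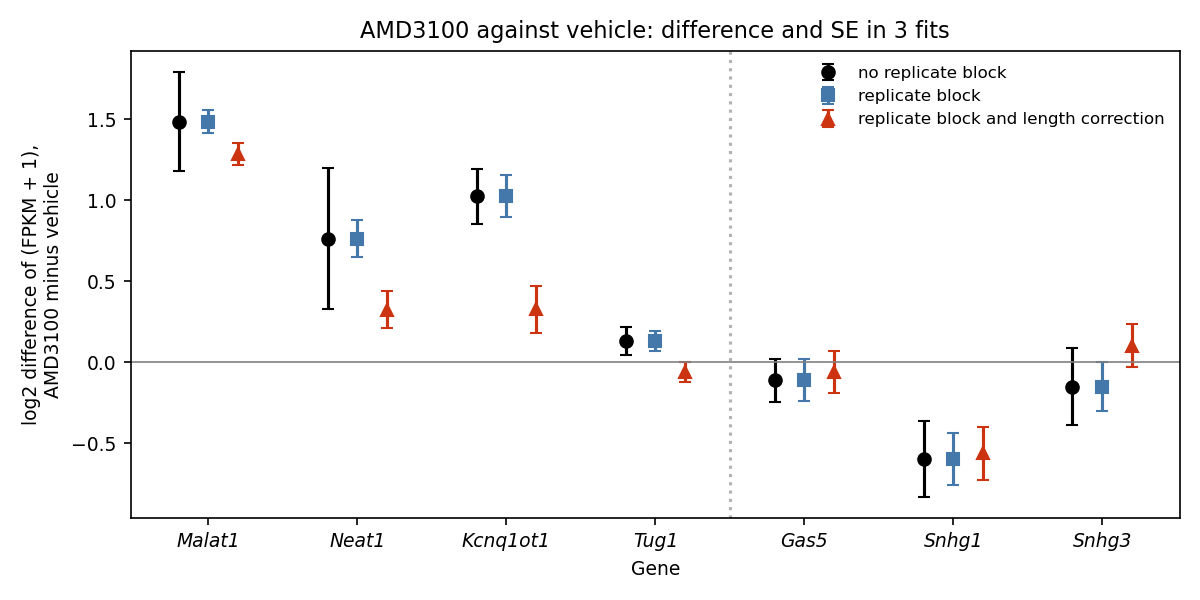
Log2 difference of FPKM + 1 (AMD3100 minus vehicle) with its SE for each of the 7 RNAs, without a replicate block (black), with it (blue) and with the block and the length correction (red). Malat1 stays above 1 in all 3, whereas Neat1 and Kcnq1ot1 drop to 0.32 and 0.33 after the length correction and Snhg1 stays below -0.5. The correction is less sure for the very long Neat1 and Kcnq1ot1.

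Within each library, the 4 nuclear RNAs were summed and divided by the sum of the 3 hosts, which needs no scaling between libraries. The length trend is not removed from this ratio. Its nuclear RNAs all lie in the longest length class (5174 bases or more), and its hosts lie in shorter classes. The part of length in the ratio was not tested. This ratio was 0.714, 1.03 and 1.34 in vehicle and 2.17, 2.77 and 5.81 with AMD3100. The lowest AMD3100 value exceeded the highest vehicle value, and sample 3 was the highest in both groups. Malat1 makes up most of the nuclear sum. Without it the ratio was 0.182, 0.251 and 0.239 in vehicle and 0.268, 0.352 and 0.504 with AMD3100, still without overlap. Malat1 alone took 0.0384%, 0.0479% and 0.0696% of the summed FPKM in vehicle and 0.113%, 0.130% and 0.203% with AMD3100. The ratio rests on the members' own values and is no separate evidence.

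**Figure D3:**
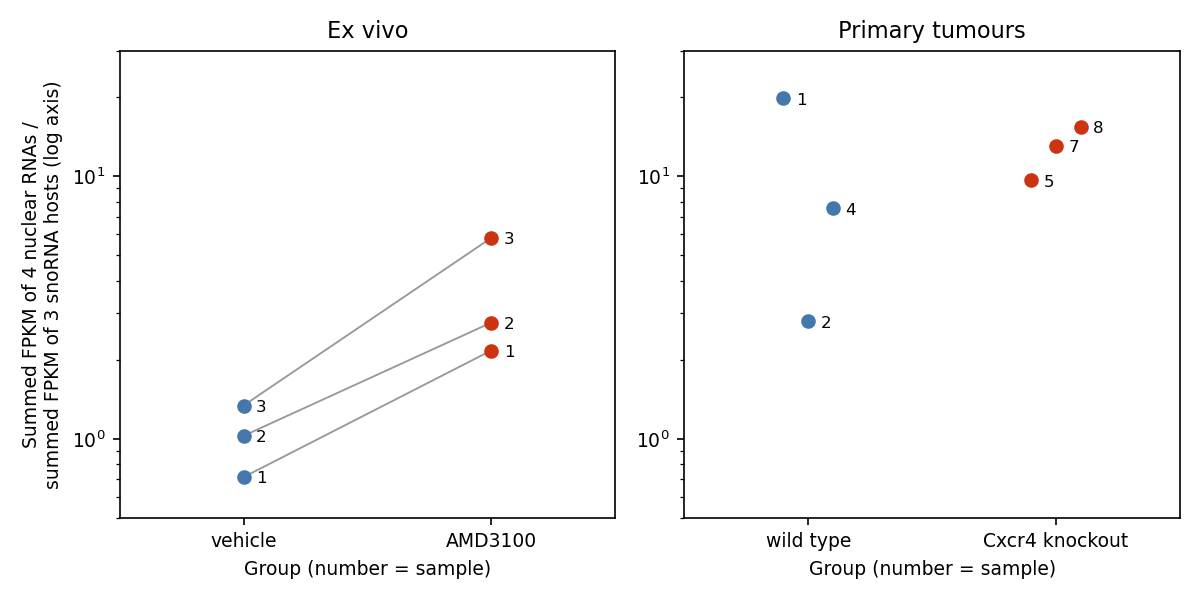
Summed FPKM of the 4 nuclear RNAs divided by that of the 3 snoRNA hosts (log axis) in each sample ex vivo (left) and in the primary tumours (right). Numbers beside points are sample numbers, and grey lines join same-numbered samples. No correction for length was made. The ratio is 0.714 to 1.34 in vehicle, 2.17 to 5.81 with AMD3100, 2.80 to 19.8 in wild-type tumours and 9.63 to 15.4 in knockout tumours.

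Related gene lists are given with the replicate block, where over all genes 9.96% were called higher and 9.92% lower, or 6.28% and 6.82% with the length correction added. With the block, 0 genes of the related lists were called in the fit without pair 1 or in that without pair 2. Each of these fits held only 2 pairs and called very few genes of any kind, as given above. A call lost there thus cannot show that the difference of a gene depends on pair 1 or pair 2. Calls in the fit without pair 3 are given for some genes and lists.

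Other noncoding RNAs, listed as nuclear although their place in the cell was not measured, were mostly above 0. Of 9 that passed the filter, 8 had a positive log2 difference and the median was 0.53, against 0.00 over all genes. Among the 8, H19 (0.92, SE 1.32) and Nespas (0.30, SE 0.95) lay within their SE without the block. Xist, which coats the inactive X chromosome, rose from 58.8 ± 15.9 to 146 ± 15.4 FPKM (SD, n = 3) with the replicate block in limma, a log2 difference of 1.33 (paired SE 0.13, adjusted p = 0.0191), but was not called without the block (adjusted p = 0.0544). It was also called with the length correction, at 0.92, and without pair 3. Airn, an imprinted antisense RNA, was at 6.60 ± 2.29 and 11.5 ± 1.86 FPKM (paired log2 difference 0.76, adjusted p = 0.0945 in limma), and Dleu2 at 4.58 ± 1.30 and 7.29 ± 1.77 FPKM (0.58, adjusted p = 0.0734). Dleu2 was called without pair 3 (adjusted p = 0.0361 in limma).

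Of the other noncoding snoRNA hosts, 8 passed the filter and their median log2 difference was 0.10. Snhg12 rose from 52.4 ± 17.7 to 78.9 ± 7.65 FPKM with the replicate block in limma (log2 difference 0.64, paired SE 0.16, adjusted p = 0.0494), and its adjusted p was 0.249 without the block. It was called with the length correction (adjusted p = 0.0400) but in none of the fits without a pair. The other 7 hosts were not called. Snhg6, the most abundant, was at 161 ± 7.08 and 159 ± 29.9 FPKM, and Snhg8 at 21.7 ± 3.73 and 23.2 ± 4.02 FPKM. Of 36 protein-coding genes that host snoRNAs, 0 were called higher and 4 lower with the block, or 11.1% lower, near the share over all genes. With the length correction 2 were called higher and 3 lower, and without pair 3 it was 0 and 2. Among the 4, Hspa8, a chaperone, fell from 356 ± 17.7 to 244 ± 26.9 FPKM, and Rpl23, a ribosomal protein, from 440 ± 50.7 to 297 ± 70.8 FPKM (adjusted p = 0.0306 for both in paired limma). Rpl23 lost its call with the length correction (adjusted p = 0.0734). Of 24 mRNAs of the TOP class, 2 were called higher and 1 lower, or 12.5% in all, below the 19.9% over all genes. Some rows of these 2 lists were very low and may be failed estimates, yet count as tested and not called. In vehicle, Rps12, Rps2 and Tpt1 had means of 1.55, 12.1 and 21.8 FPKM, beside Rplp1 at 4221 FPKM. Pabpc1, the poly-A binding protein, rose from 663 ± 24.8 to 891 ± 39.9 FPKM (adjusted p = 0.0318), and Eef1d, an elongation factor subunit, fell from 143 ± 5.61 to 103 ± 15.8 FPKM (adjusted p = 0.0277). Without pair 3, 1 of this list was called higher and 1 lower, the latter Eef1d.

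Of 16 tested proteins of the snoRNA particles, 0 were called higher and 8 lower with the block, where 9.92% of all genes were called lower, and their median log2 difference was -0.38. With the length correction 3 were called lower and the median was -0.30. Nhp2, a core protein of the H/ACA particles that guide pseudouridine formation, fell from 189 ± 8.63 to 127 ± 5.88 FPKM (paired log2 difference -0.57, adjusted p = 0.0197 in limma). Dkc1, the pseudouridine synthase of those particles and itself a snoRNA host, fell from 94.8 ± 8.25 to 70.7 ± 1.88 FPKM (adjusted p = 0.0305). Nop58, a core protein of the C/D particles that guide ribose methylation, fell from 254 ± 17.4 to 193 ± 13.2 FPKM (adjusted p = 0.0469). These 3 kept their calls with the length correction. Without the block 0 of the 16 were called, and with the block but without pair 3 the number was 2, Nhp2 among them.

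Proteins of the bodies that hold Malat1 and Neat1 were called about as often as genes in general. Of 24 nuclear speckle proteins, 2 were called higher and 2 lower with the block (16.7% against 19.9% of all genes). Srrm2, a large scaffold protein of speckles, rose from 105 ± 9.68 to 158 ± 13.6 FPKM (paired log2 difference 0.58, adjusted p = 0.0191 in limma), and the splicing factor U2af2 fell from 120 ± 11.1 to 92.1 ± 7.46 FPKM (adjusted p = 0.0334), a call lost with the length correction (adjusted p = 0.0559). Of 16 paraspeckle proteins, 1 was called higher and 2 lower (18.8%), and with the length correction 0 and 3. Rbm14 rose from 61.0 ± 1.92 to 74.9 ± 3.18 FPKM (adjusted p = 0.0459, or 0.0589 with the length correction), and Hnrnpk, which takes part in Neat1 processing, fell from 249 ± 22.8 to 159 ± 4.58 FPKM (log2 difference -0.64, adjusted p = 0.0197). Of 17 factors of nonsense-mediated decay, 2 were called higher and 3 lower (29.4%), and with the length correction 0 and 2. Smg6, the endonuclease of this pathway, rose from 16.9 ± 0.287 to 22.0 ± 1.84 FPKM (adjusted p = 0.0398, or 0.142 with the length correction), and the exon junction protein Rbm8a fell from 42.2 ± 0.663 to 31.9 ± 0.993 FPKM (adjusted p = 0.0255). Of the genes named here, 0 were called without the block, and Srrm2, Hnrnpk and Rbm8a were called without pair 3.

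Gas5 is also known to bind the glucocorticoid receptor and hold it off its targets. Of 7 tested genes of the glucocorticoid response, 2 were called higher and 0 lower with the block, and with the length correction 1 and 0. Nr3c1, the receptor itself, rose from 53.8 ± 22.5 to 71.0 ± 27.5 FPKM (paired log2 difference 0.40, adjusted p = 0.0379 in limma), and the phosphatase gene Dusp1 from 9.98 ± 2.60 to 17.7 ± 8.78 FPKM (0.70, adjusted p = 0.0402). Without the block the adjusted p was 0.610 and 0.342, and with the length correction 0.130 and 0.0416. Neither was called without pair 3, where Per1 of the same list was called higher (adjusted p = 0.0495 in limma).

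Snhg1 lies between Slc3a2 and Wdr74. Slc3a2, the heavy chain of amino acid transporters, rose from 91.2 ± 12.7 to 155 ± 15.8 FPKM (paired log2 difference 0.76, adjusted p = 0.0280 in limma), and Wdr74, a ribosome assembly factor, fell from 57.5 ± 1.97 to 35.7 ± 3.16 FPKM (-0.68, adjusted p = 0.0191). The neighbours of Snhg1 thus moved in opposite directions, and Wdr74 had the sign of Snhg1. Both were called with the length correction and without pair 3. These were the only 2 of 9 tested neighbours that were called. Frmd8, beside Neat1, was at a log2 difference of 0.30 (adjusted p = 0.0808 in paired limma), and Morc2a, beside Tug1, at 0.05. In the Kcnq1 region, 0 of 6 tested genes were called. Cdkn1c, the growth inhibitor that Kcnq1ot1 is known to silence, was at 1.97 ± 1.29 and 1.58 ± 1.31 FPKM, and Nap1l4 at 107 ± 4.78 and 93.5 ± 7.66 FPKM (adjusted p = 0.0845).

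Of the snoRNAs themselves, 3 of 21 symbols hosted by the members had a row. Snord47, from Gas5, was listed at 0 in vehicle 1, vehicle 2 and AMD3100 3 and at 1222 to 3700 FPKM in the other samples. It was called higher only in the fit without pair 3, where every vehicle sample left was at 0. Snord22, from Snhg1, was at 145, 127 and 115 FPKM in vehicle and at 81.7, 278 and 215 FPKM with AMD3100, so its groups overlapped. Rnu73b was listed at 0 in all ex vivo samples. Poly-A selection is not made for such short RNAs, and their values were erratic.

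In the tumours none of the 7 RNAs separated the genotypes. All groups overlapped, and limma called 0 of the 7 members where it called 0.0372% of 10741 genes (4 genes, with 460 at an unadjusted p under 0.05). Groups that did not overlap were found for 4.01% of all genes in the higher direction and 5.2% in the lower. The spread between tumours of 1 genotype was the main feature of the values.

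**Figure D4:**
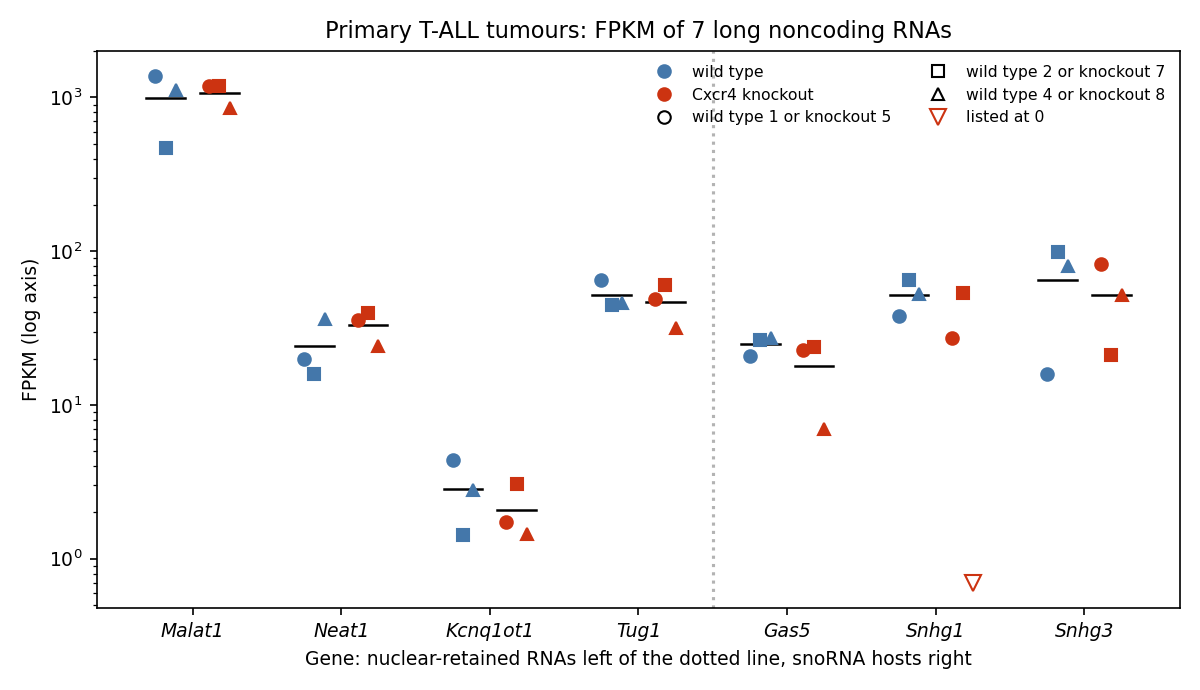
FPKM (log axis) of the 7 RNAs in primary tumours, with blue points for wild type, red points for Cxcr4 knockout, shapes for the tumour and black bars for group means (n = 3, not drawn for the group with a value of 0). Malat1 lies highest at 470 to 1378 FPKM, the groups overlap for each gene, and the open triangle marks Snhg1 listed at 0 in knockout 8.

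Malat1 was at 1378, 470 and 1119 FPKM in wild type 1, 2 and 4 and at 1192, 1185 and 850 FPKM in knockout 5, 7 and 8. Wild type 2 was the lowest of the 6 and wild type 1 the highest, so that the knockout range lay inside the wild-type range. The means were 989 ± 468 and 1076 ± 195 FPKM (SD, n = 3), with a log2 difference of 0.24 (SE 0.50). Neat1 was at 19.8, 15.9 and 36.5 FPKM in wild type and at 35.8, 39.6 and 24.3 FPKM in knockout, a log2 difference of 0.51 (SE 0.39). Wild type 4 exceeded knockouts 5 and 8.

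Kcnq1ot1 was at 4.36, 1.42 and 2.80 FPKM in wild type and at 1.74, 3.07 and 1.44 FPKM in knockout, with a log2 difference of -0.29 (SE 0.50), which ran from -0.59 to -0.012 when 1 tumour was left out. Its highest and lowest tumours were both wild type, the same 2 tumours as for Malat1. Tug1 was at 65.2, 44.4 and 46.0 FPKM in wild type and at 48.8, 60.0 and 31.8 FPKM in knockout (log2 difference -0.17, SE 0.33). It was highest in wild type 1 and lowest in knockout 8.

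Gas5 was at 20.7, 26.6 and 27.4 FPKM in wild type and at 22.8, 23.9 and 7.01 FPKM in knockout, with knockout 8 far below the other 5 tumours. Its log2 difference was -0.61 (SE 0.48), and -0.079 without knockout 8. Snhg1 was at 37.7, 64.9 and 52.5 FPKM in wild type, at 27.2 and 53.5 FPKM in knockouts 5 and 7, and listed at 0 in knockout 8. The fitted log2 difference of -2.16 (SE 1.36) rested on that library, and without it was -0.39. Knockout 8 is also the tumour with the most genes listed at 0. Snhg3 was at 15.8, 98.5 and 79.8 FPKM in wild type and at 82.8, 21.3 and 51.8 FPKM in knockout (log2 difference -0.15, SE 0.77), a wide spread in both groups. The 2 tumours with the least Snhg3, wild type 1 and knockout 7, had the highest summed FPKM of 10 T cell markers (4550 and 3568, against 1231 to 2966 in the other 4). The part of cell makeup in this was not tested.

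The ratio of nuclear RNAs to hosts was 19.8, 2.80 and 7.54 in wild type and 9.63, 13.1 and 15.4 in knockout, with the knockouts inside the wild-type range. Among the other nuclear RNAs only Xist was called. It stood at 143, 96.4 and 147 FPKM in wild type and at 0.829, 2.80 and 2.69 FPKM in knockout, a log2 difference of -5.43 (SE 0.39, adjusted p = 0.0125 in limma). The Y-linked gene Ddx3y was at 0.109, 0.0265 and 0.0304 FPKM in wild type and at 23.4, 27.6 and 16.0 FPKM in knockout. Sex and Cxcr4 genotype therefore cannot be told apart in these tumours. Of the other gene lists named above, 0 members were called in the tumours. The median log2 difference there was -0.26 over 9 other noncoding hosts, -0.38 over 16 snoRNA particle proteins, -0.30 over 24 speckle proteins and -0.15 over 16 paraspeckle proteins, against -0.03 over all genes. It was -0.83 over 7 other nuclear RNAs, Xist among them, -0.13 over 17 decay factors, -0.19 over 8 glucocorticoid genes and -0.11 over 10 neighbours. Medians above 0 were 0.11 over 35 protein-coding hosts, 0.03 over 24 TOP mRNAs and 0.15 over 6 Kcnq1 region genes. Haemoglobin genes, which mark red cells, made up 1.29% to 23.0% of all FPKM in the wild-type tumours and 2.76% to 20.4% in the knockouts. The 7 erythroid markers found had 8 rows, none of them at 0 throughout a genotype. Their sums were 3546 to 102712 FPKM in wild type, against 8518 to 87307 FPKM in knockout. Macrophage markers summed to 11.5 to 60.7 FPKM in wild type, against 25.7 to 75.6 in knockout, neutrophil markers to 5.56 to 3106 and 66.8 to 318, and B cell markers to 1.49 to 10.7 and 9.62 to 17.5. The part of these cells in the tumour values was not tested. Ex vivo, the same 8 erythroid rows summed to at most 1.12 FPKM in any library and 6 of them were at 0 throughout each group. The 8 tested stromal markers had a median log2 difference of -0.09 with 0 called. Thy1, 1 of them, was at 1582 ± 282 FPKM in vehicle. It was also at 600 ± 450 FPKM in wild-type tumours, where 7 of the 10 stromal markers were at 0 throughout. Thy1 RNA ex vivo thus need not come from OP9 cells. Macrophage marker sums were low ex vivo but did not overlap between the groups, at 1.59 to 1.89 FPKM in vehicle and 2.48 to 2.92 with AMD3100. Such a separation in the higher direction was found for 13.1% of all genes. Of the 7 markers, 3 were at 0 throughout each group and only Cd68 passed the filter. Cd68 was at 1.51 ± 0.345 and 2.50 ± 0.249 FPKM and was not called with the block (adjusted p = 0.112 in limma). The part of these cell types in the ex vivo values was not tested.

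Across samples some members varied together. Each value was taken as its deviation from the mean of its own group, so that treatment and genotype do not enter, and correlated over all 12 samples from both tables. Within a group the 3 deviations sum to 0, and the samples share libraries and depth, so these r values are descriptions. Malat1 had an r of 0.76 with Neat1 and 0.77 with Kcnq1ot1, and Kcnq1ot1 had 0.79 with Tug1. Snhg3 ran opposite to Kcnq1ot1 (r = -0.82) and to Malat1 (r = -0.60). Gas5 and Snhg1 had the highest r of any pair (0.96), which dropped to 0.51 without knockout 8. The other values named here moved by less, to 0.74, 0.76, 0.86, -0.85 and -0.60 in the same order. Ex vivo alone, over 6 samples, Malat1 and Neat1 had an r of 0.97, with sample 3 above and samples 1 and 2 below the mean in both groups. There Kcnq1ot1 had 0.59 with Malat1, 0.61 with Tug1 and -0.22 with Snhg3. Malat1 had -0.86 with Snhg3, and Gas5 had 0.35 with Snhg1. Over the 12 samples, 2.62% of genes had a higher r to Malat1 than Neat1 did, and 2.16% than Kcnq1ot1 did. For Kcnq1ot1, 5.45% had a higher r than Tug1, and for Gas5 0.325% than Snhg1.

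**Figure D5:**
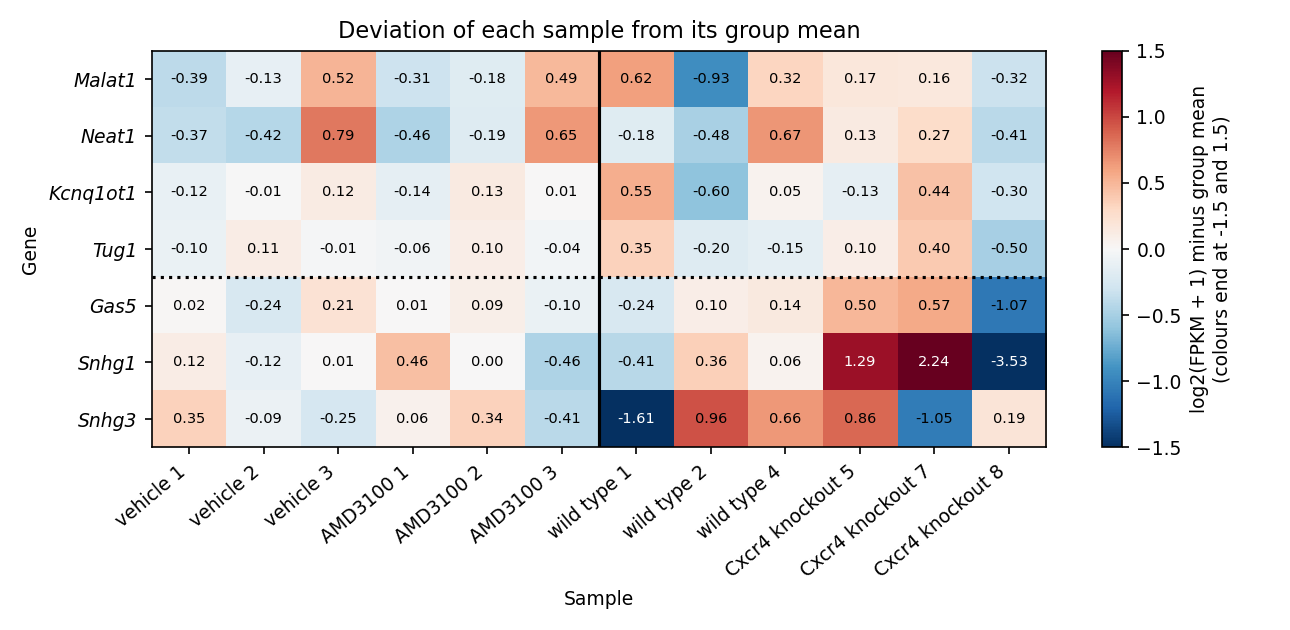
Deviation of log2(FPKM + 1) from the group mean for each RNA (rows) in each of the 12 samples (columns), red above and blue below the mean. Malat1 and Neat1 are both raised in vehicle 3 and AMD3100 3, Snhg3 is low in wild type 1 and knockout 7, and Snhg1 is at -3.53 in knockout 8.

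By the same measure over 9547 other genes, Malat1 was most like Gabpb1 (r = 0.95), Reep1 (0.94) and Parp11 (0.93), and Neat1 was most like St3gal1 (0.95), Ep400 (0.93) and Ifnar2 (0.93). For Kcnq1ot1 the closest was Mll1, a histone methyltransferase (0.98), with Whrn and Fbrs at 0.97. Tug1 was closest to Zfp329, Cdk13 and Taf3 (each 0.98). Snhg3 was closest to Ruvbl2 (0.98), an ATPase that helps to assemble snoRNA particles, then Pold1 and 1110001J03Rik (0.97). These r values for the nuclear RNAs and Snhg3 stayed between 0.93 and 0.99 without knockout 8. For Gas5 they did not: Mnf1, Endog and Hdac3 had an r of 0.98 and of 0.85, 0.91 and 0.81 without that library. For Snhg1, D11Wsu47e, Rmrp and Brf2 had an r of 0.99 and of 0.80, 0.78 and 0.75 without it. The genes were picked as the highest of many, so high values arise from the picking as well.

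In level, Malat1 was the highest of the 7 in 11 of 12 samples, with Snhg1 above it in vehicle 1, and Kcnq1ot1 was the lowest in 11 of 12, the exception being knockout 8 with Snhg1 listed at 0. In vehicle cells the order by mean FPKM was Malat1, Snhg1, Tug1, Snhg3, Gas5, Neat1 and Kcnq1ot1. Malat1 and Snhg1 overlapped there, as did Tug1, Snhg3 and Gas5, while Neat1 lay below Gas5 and above Kcnq1ot1 in every sample. With AMD3100 the order was the same, and Malat1 no longer overlapped Snhg1. In wild-type tumours Snhg3, Tug1 and Snhg1 overlapped below Malat1, at means of 64.7, 51.9 and 51.7 FPKM. Gas5 (24.9 ± 3.66) and Neat1 (24.1 ± 10.9) overlapped each other, and the lowest Snhg3 value lay just below both, while Kcnq1ot1 (2.86 ± 1.47) was last. In knockout tumours Snhg3 (52.0 ± 30.8) and Tug1 (46.9 ± 14.2) again overlapped below Malat1, Neat1 (33.3 ± 7.94) overlapped Tug1, and Gas5 (17.9 ± 9.45 FPKM) lay below both nonzero Snhg1 values.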

How the data were processed

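Poly-A RNA of 12 mouse samples was sequenced as 50-base single reads from strand-specific (dUTP) libraries, per the labels' protocols. The deposited values are FPKM, made by the authors with CASAVA and TopHat on build mm9, per the submitters' processing notes. The sources used here name neither the program and annotation behind the FPKM values nor the use of strand. Read totals are unknown.

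Each table was fitted alone in limma 3.58.1 (R 4.3.3) on log2(FPKM + 1), with genes at a mean of at least 1 FPKM, eBayes with a trend, two-sided, and Benjamini-Hochberg adjustment over all genes tested. A call is an adjusted p under 0.05. The fit without the block was checked on data simulated with a common spread. The block and the length correction were not checked in this way. An exact permutation test of 3 against 3 cannot give a p under 0.1, so none was run. Same-numbered ex vivo samples deviated together (r = 0.467, 0.579 and 0.619; different numbers -0.473 to 0.0455), above the limit of 0.1, so the replicate block is given beside the unblocked fit. What the number marks is not in the labels. The length correction removed a lowess curve (span 0.3) of each pair's difference against the longest GENCODE M21 transcript of the symbol, known for 98.4% of the genes.

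The members and the 20 gene lists were chosen with earlier results of these data known. Genes named were the members, the 3 smallest unblocked p-values of a list, the tested neighbours and Kcnq1 region genes, and the 3 genes most like each member. Rpl23, Nop58, Nr3c1, Gapdh, Ddx3y, Snhg6, Snhg8, Rps12, Rps2, Tpt1, Rplp1, H19, Nespas and Thy1 were named after their values were seen. Not every gene the rule takes is described. Alternatives were other pseudocounts, filters, scalings and variance models, an adjusted p under 0.10, leaving out each sample, the block and the length correction. The block without a pair and the ratio without Malat1 were added after seeing the data.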

Additional observations from a re-analysis of the deposited data

How the results depend on the processing

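The number of genes called ex vivo was 13 in the reported fit, 8 with no filter, 188 with a filter at a mean of 5 FPKM, 3 with quantile normalisation, 1 without the variance trend, 847 at an adjusted p under 0.10 and 3 to 5 when 1 sample was left out. It was 2036 with the replicate block, 1320 with the block and the length correction, and 7 or 1207 with the block over pairs 1 and 3 or 1 and 2. In the tumours it was 4, with 0 under no filter and 0 to 4 when 1 tumour was left out. Of the members ex vivo, Malat1 (1.24 to 1.74 on the log2 scale), Neat1 (0.32 to 1.16), Kcnq1ot1 (0.33 to 1.30) and Snhg1 (-0.83 to -0.36) kept their direction in every alternative run. Tug1 turned to -0.060 and Snhg3 to 0.10 with the block and length correction, and Gas5 to 0.045 with the block over pairs 1 and 2. Leaving out 1 ex vivo sample took Snhg3 from -0.32 to 0.053. In the tumours Malat1 turned to -0.14 with quantile normalisation. Leaving out 1 tumour took Malat1 from -0.22 to 0.55, Neat1 from 0.27 to 0.84, Kcnq1ot1 from -0.59 to -0.012, Gas5 from -0.90 to -0.079, Snhg1 from -3.28 to -0.39, Tug1 from -0.37 to 0.081 and Snhg3 from -0.96 to 0.37. The log2 difference of the nuclear to host ratio ex vivo was 1.72, 1.14 with geometric means and 0.71 without Malat1. The causes were not tested. With 3 samples a group and unknown read totals, the Gas5 difference ex vivo lies within its SE, and that of Tug1 exceeds its SE but was called in no fit.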
